A study of Sus scrofa with 12 samples.

Results

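The arrays compared here carried RNA of porcine subcutaneous preadipocytes, the precursors of fat cells, that had been transfected with LGR4 siRNA or with a control siRNA and then differentiated for 4 days. The comparison rests on 6 of the 12 arrays of the study, 3 with LGR4 siRNA and 3 with control siRNA, chosen by the group named in the sample titles. Cells came from subcutaneous tissue of female pigs and grew in low-glucose medium (1.0 g/L) with serum (10%). For differentiation both groups received high-glucose medium (4.5 g/L) with serum (10%), insulin (5 µg/mL), dexamethasone (0.25 µM), biotin (33 µM), pantothenate (17 µM) and octanoate (5 mM). The control siRNA was the QIAGEN AllStars negative control, and the LGR4 siRNA was designed by Sigma. On every array the sample was labelled with Cy3, and Cy5 carried a common reference, RNA of preadipocytes at day 0 that were neither transfected nor differentiated. The other 6 arrays, with F2RL2 or GPR124 siRNA in the same medium and at the same day, are used below to choose probes and to set LGR4 siRNA beside other targeting siRNAs.

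LGR4 is a seven-pass membrane receptor for R-spondins. With R-spondin bound, it holds back the ubiquitin ligases ZNRF3 and RNF43, which otherwise remove Frizzled receptors from the cell surface, so that the cell responds more strongly to Wnt ligands. Canonical Wnt signalling is known to keep preadipocytes undifferentiated, and LGR4 has been studied in adipose tissue for that reason. In adipose conversion, insulin and a glucocorticoid start a program in which genes of the proliferating, matrix-producing precursor are switched down and genes of lipid storage are switched up.

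Values are log2 ratios of Cy3 over Cy5, so that 0 means the level of the undifferentiated reference and 1 means a level that is higher by a factor of 2. They are given as mean ± SD over 3 arrays. The scanner files and the tables used here pair none of the 43221 probes with a gene, so probes are described by behaviour, and neither the level of the LGR4 transcript nor fat cell markers were checked here. Several probes may report the same transcript. In all, 32346 probes lay well above background often enough to be tested. Between 25323 and 28458 probes were well above background in Cy3 on the 6 arrays. Across probes, log ratios correlated at 0.97 to 0.98 among control arrays, 0.92 to 0.96 among LGR4 arrays and 0.80 to 0.84 between the groups. The control arrays lay on slide 1, LGR4 siRNA replicates 1 and 2 on slide 2 and replicate 3 on slide 3, so no slide held both groups. LGR4 siRNA replicate 3 also had 335 probes marked as outlier spots by the scanner software, against 1 or 2 on the other 5 arrays. Where nothing in the labels says that replicates were separate cultures, p-values measure the spread between these arrays only.

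Many probes differed by small amounts between the LGR4 and control siRNA arrays. Of 32346 probes, 4424 were higher (13.7% of those tested) and 3032 lower (9.37%) with LGR4 siRNA than with control siRNA (limma, Benjamini-Hochberg adjusted p under 0.05). These calls made up 23.1% of the probes. The interquartile range of all differences lay between -0.12 and 0.17 on the log2 scale, with a median of 0.027. A difference of at least 1 was reached by 464 higher probes (1.43%) and 276 lower probes (0.853%). All 3 LGR4 arrays lay above all 3 control arrays for 7968 probes (24.6%), and below them for 6046 (18.7%). The number of calls depended on how arrays were scaled and on the slide. Centring each array on its median in place of loess gave 3576 calls instead of 7456, of which 74.3% were higher against 59.3%, and slide as a fixed block gave 2711.

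Probes were then sorted by what differentiation did to them. So that no LGR4 or control array chose its own probes, the classes were read from the average of the F2RL2 and GPR124 siRNA groups: 1473 probes were lowered at day 4 and 776 raised, with a log2 ratio of at least 1 in size and an adjusted p under 0.05. These groups also carried targeting siRNAs and the same reference RNA, so anything that all targeting siRNAs share enters the choice. With control siRNA the lowered probes stood at a median of -1.59 and the raised probes at 1.52.

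The probes that fall in differentiation fell less far with LGR4 siRNA. Their mean log ratio was -1.67, -1.76 and -1.67 on control siRNA arrays 1 to 3 and -1.45, -1.35 and -1.32 on LGR4 siRNA arrays 1 to 3. Every LGR4 array lay above every control array. The group means were -1.70 ± 0.056 with control siRNA and -1.37 ± 0.065 with LGR4 siRNA, a difference of 0.33 (exact permutation test over arrays, 2-sided, p = 0.1, with 3 arrays in each group, a design that allows no smaller p). LGR4 arrays thus kept 80.8% of the control group's mean fall, with 85.1%, 79.5% and 77.9% on the single arrays. In the class mean of the raised probes no shift beyond the spread of the arrays was seen. Their mean was 1.70, 1.73 and 1.70 on the control arrays and 1.71, 1.73 and 1.66 on the LGR4 arrays, and the groups overlapped. The means of 1.71 ± 0.018 and 1.70 ± 0.038 differed by -0.0078 (exact permutation p = 0.9). The sum of both class means, which is 0 where falls and rises are equally large, lay between -0.034 and 0.034 on control arrays and between 0.26 and 0.38 on LGR4 arrays (exact permutation p = 0.1, again the limit of the design). On the arrays that chose the classes it lay between 0.11 and 0.26 with F2RL2 siRNA and between -0.045 and 0.19 with GPR124 siRNA. The sum depends on that choice. With classes from the control arrays, which are part of the difference, lowered probes differed by 0.46 and raised probes by -0.45.

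**Figure D1:**
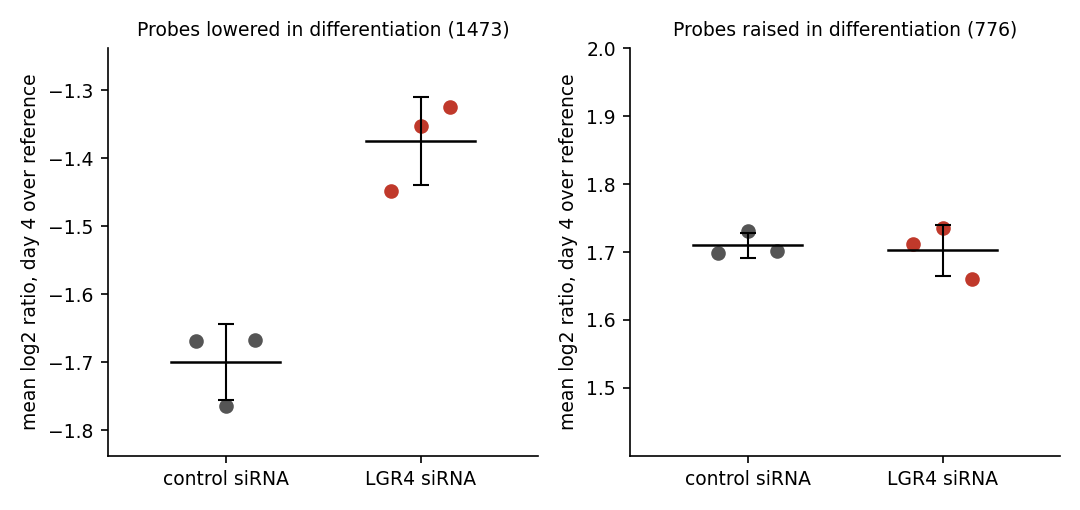
Mean log2 ratio of day 4 cells over the day 0 reference for the lowered class (left) and the raised class (right), with 1 point per array; lines are group means and bars 1 SD over 3 arrays, and both panels span the same range. In the lowered class the LGR4 arrays lie between -1.45 and -1.32, above all control arrays, while in the raised class the groups overlap.

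Within the lowered class, 720 of 1473 probes (48.9%) were called higher with LGR4 siRNA, 117 (7.94%) lower, and 636 did not pass. Over all probes the share called higher was 13.7%. The interquartile range of the class lay between 0.021 and 0.59, with a median difference of 0.31. A positive difference, called or not, was seen for 76.3% of the class and for 55.2% of all probes. LGR4 arrays lay above all control arrays for 875 of these probes (59.4%, against 24.6% of all probes) and below them for 180 (12.2%). The 720 probes that rose had been at -2.04 ± 0.047 with control siRNA and were at -1.33 ± 0.062 with LGR4 siRNA. The 117 that fell further started closer to the reference, at -0.93 ± 0.052, and reached -1.53 ± 0.072. These subsets were chosen on the same contrast, so their values are a description.

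Fewer lowered probes passed the 2-fold line with LGR4 siRNA. A mean log ratio of -1 or below was seen for 1256 of the 1473 lowered probes (85.3%) with control siRNA and for 1064 (72.2%) with LGR4 siRNA. On single arrays the count was 1233, 1282 and 1252 with control siRNA and 1108, 1038 and 1023 with LGR4 siRNA, so the LGR4 arrays all had fewer. The line was passed by 261 probes with control siRNA alone and by 69 with LGR4 siRNA alone. A fall of at least 2 was reached by 402 to 466 probes on control arrays and by 202 to 277 on LGR4 arrays. Full return was rare: 16 lowered probes had a mean above the reference with LGR4 siRNA and 7 had one with control siRNA.

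The difference was larger where the fall was deeper. For 896 probes with a log ratio of -1.5 to -1 in the F2RL2 and GPR124 average, the median difference was 0.22. Of these 40.1% were called higher, against 13.7% of all probes. For 330 probes at -2 to -1.5 it was 0.48, with 59.4% higher, and for 215 probes at -3 to -2 it was 0.52, with 66.5% higher. The 32 probes below -3 had a median of 0.62, and their mean was -3.57, -3.74 and -3.52 on the control arrays and -3.05, -2.97 and -2.99 on the LGR4 arrays. Just outside the class, 2788 probes at -1 to -0.5 had a median of 0.075. In the 2 steps on either side of 0 the medians were 0.019 and 0.018. In each of the 4 steps of the lowered class, all LGR4 arrays lay above all control arrays. Brightness moved with the size of the difference. All probes were cut into 4 equal groups by mean spot brightness. The median was 0.18 for the 328 class members in the group next to the dimmest. It was 0.36 and 0.35 in the brighter groups, where 53.6% and 56.5% were called higher. The share called over all probes of each brightness group was not computed, and the part of brightness was not tested.

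**Figure D2:**
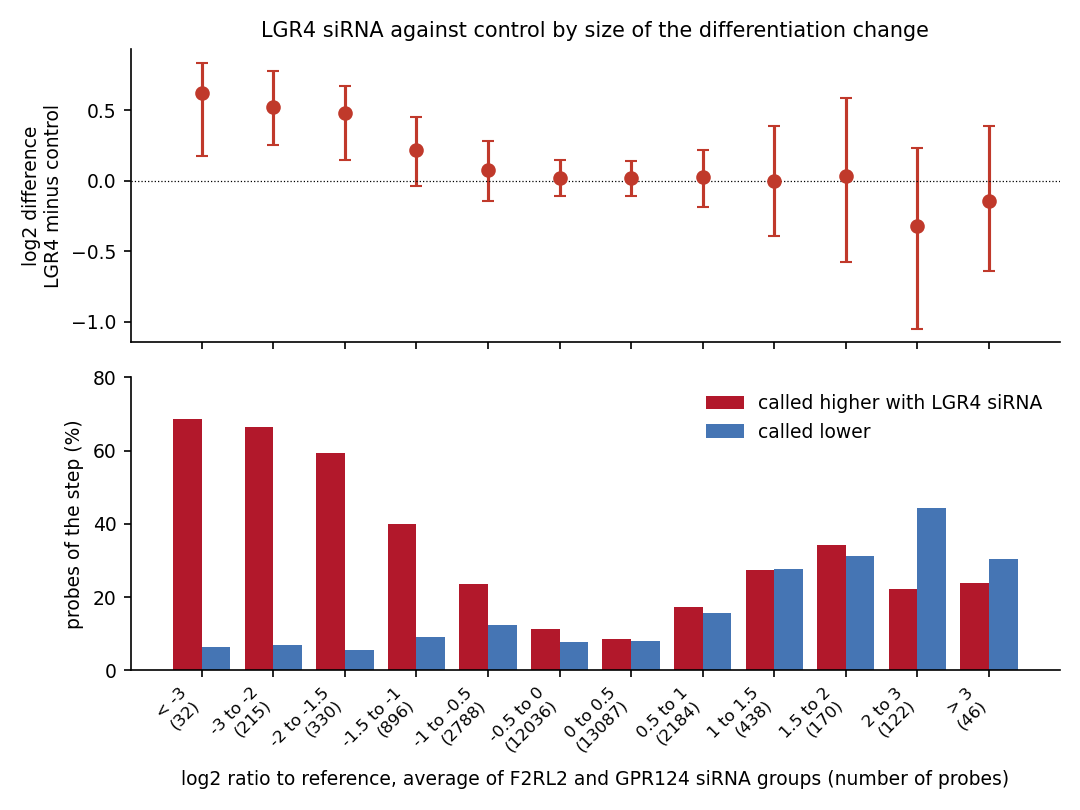
Differences between LGR4 and control siRNA by size of the differentiation change, taken from the average of the F2RL2 and GPR124 groups. Points are medians and bars the interquartile range (upper panel), and columns are the shares called higher or lower (lower panel, from 0); the share called higher is 40.1% to 68.8% in the steps below -1 and 8.50% in the step from 0 to 0.5.

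The raised class held changes in both directions. Of 776 probes, 216 (27.8%) were called higher with LGR4 siRNA, 242 (31.2%) lower and 318 did not pass, against 13.7% higher and 9.37% lower over all probes. Differences were spread more widely than in the lowered class, with an interquartile range from -0.51 to 0.42 and a median of -0.030. A difference of at least 0.5 in either direction was seen for 47.9% of the raised class, 36.9% of the lowered class and 9.90% of all probes. All 3 LGR4 arrays lay above all control arrays for 275 raised probes (35.4%) and below them for 296 (38.1%). A log ratio of at least 1 was reached by 571, 584 and 579 raised probes on the control arrays. On the LGR4 arrays the count was 615, 619 and 593, above every control array. The 242 probes that fell had stood high with control siRNA, at 2.32 ± 0.021, and were at 1.36 ± 0.036 with LGR4 siRNA. The 216 that rose went from 1.08 ± 0.011 to 2.14 ± 0.034. Both subsets were chosen on the same contrast, which favours high control values among falling probes and low ones among rising probes. Their values are a description. By step of the differentiation change, calls were even at 1 to 1.5 (27.4% higher and 27.6% lower) and at 1.5 to 2 (34.1% and 31.2%). From 2 to 3 more of the 122 probes fell (44.3%) than rose (22.1%), with a median of -0.32. The mean of the step at 1.5 to 2 was 1.72 to 1.74 on control arrays and 1.82 to 1.87 on LGR4 arrays. At 2 to 3 it was 2.55 to 2.59 on control arrays and 2.13 to 2.26 on LGR4 arrays. In both steps the groups did not overlap (exact permutation p = 0.1, the limit of the design). They overlapped at 1 to 1.5 and above 3. The 46 probes above 3 had a median of -0.15. Direction also moved with spot brightness. In the group next to the dimmest, 20.9% of 253 raised probes were called higher and 39.9% lower, with a median of -0.18. In the next group 28.7% were higher and 23.7% lower. In the brightest group, of 209 probes, 35.9% were higher and 30.1% lower, with a median of 0.096. The part of brightness in the mixed directions was not tested.

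**Figure D3:**
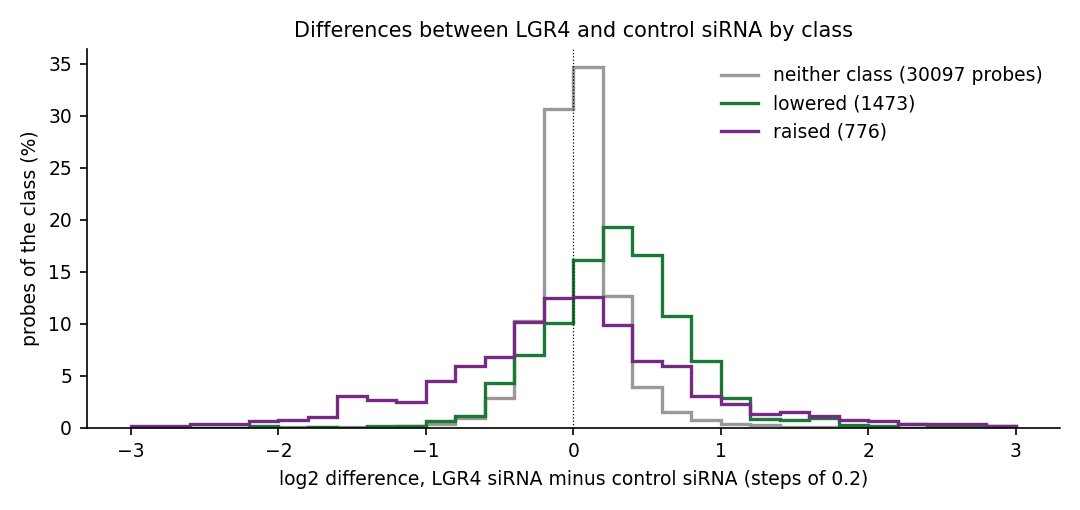
Share of probes by log2 difference between LGR4 and control siRNA for the lowered class, the raised class and all other tested probes; the few probes beyond 3 in either direction are not drawn. The lowered class is shifted to the right, with a median of 0.31, and the raised class is wide and centred near 0, with a median of -0.030.

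Both classes were mixed in how far their probes had moved in control cells. The splits below use the control arrays, which are also one side of the difference, so probes far from the reference with control siRNA are favoured to differ towards it and probes near it to differ away; the values are a description. Of the 776 raised probes, 580 were also past the 2-fold line with control siRNA. These 580 were at 2.08 ± 0.019 with control siRNA and 1.82 ± 0.049 with LGR4 siRNA. Of them, 229 fell (39.5%) and 103 rose (17.8%), against 9.37% called lower and 13.7% called higher over all probes. The other 196 were raised in the F2RL2 and GPR124 average without reaching the line in control cells. They went from 0.61 ± 0.016 to 1.36 ± 0.024, and 113 rose (57.7%) while 13 fell (6.63%). The 1256 lowered probes past the line with control siRNA too were at -1.88 ± 0.054 and -1.46 ± 0.069. Of them, 703 were called higher (56.0%) and 46 lower (3.66%). The other 217 lowered probes went the opposite way, from -0.65 ± 0.070 to -0.88 ± 0.051, with 17 called higher (7.83%) and 71 lower (32.7%). When the control arrays alone chose the probes, 1835 lowered probes differed by 0.46 and 1171 raised probes by -0.45.

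In normalized values, the sample channel carried most of the difference in the lowered class. Channel intensities were rebuilt from log ratio and mean brightness, after loess within arrays and quantile scaling of mean brightness between arrays. These steps also act on the split between the channels. The mean normalized log2 Cy3 of the class was 9.74, 9.65 and 9.72 on the control arrays and 9.99, 10.09 and 9.93 on the LGR4 arrays. The difference was 0.30, without overlap. Cy5, the reference, was at 11.41, 11.42 and 11.39 on the control arrays and at 11.44, 11.44 and 11.25 on the LGR4 arrays, so its groups overlapped. On LGR4 siRNA replicate 3 the Cy3 difference from the control mean was 0.23 and the Cy5 difference -0.15, where Cy5 carried part of the ratio. In the raised class Cy3 differed by -0.0023 between the groups and Cy5 by 0.0055. All 1473 lowered probes were well above background in Cy5 on all 6 arrays and 1330 in Cy3, and of the raised probes 751 were in Cy3 and 708 in Cy5.

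Slide moved with the groups and cannot be told apart from them directly. The lowered class lay 0.30 above control on the LGR4 arrays of slide 2 and 0.38 above it on the array of slide 3. Without LGR4 siRNA replicate 3, the class differed by 0.30, with 619 probes called higher. The F2RL2 group, which took part in choosing the class, had 1 array on slide 1, at -1.56 in this class, and 2 on slide 2, both at -1.68. The part of slide in the LGR4 difference was not tested. With slide as a fixed block, the lowered class differed by 0.42 with 405 probes called higher, and the raised class by 0.015 with 136 called higher and 131 lower.

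LGR4 siRNA was then set against the other targeting siRNAs, with classes chosen on the control arrays, which take no part in these contrasts. For the 1835 lowered probes the mean was -1.39, -1.54 and -1.52 on the F2RL2 siRNA arrays and -1.29, -1.20 and -1.15 on the LGR4 siRNA arrays. No F2RL2 array reached any LGR4 array, and the difference was 0.27 (exact permutation p = 0.1, the limit of the design). Of these probes, 38.8% were called higher with LGR4 than with F2RL2 siRNA and 5.72% lower, against 8.38% and 5.55% of all probes. On slide 2, which held 2 arrays of each group, the difference was 0.29. Median centring reduced it to 0.14 and Cy3 alone to 0.18. GPR124 siRNA arrays, at -1.25, -1.12 and -1.09, overlapped with the LGR4 arrays, and the difference was -0.057 (exact permutation p = 0.4). Single probes still differed from GPR124 siRNA, 24.1% called higher and 37.2% lower, against 18.9% and 18.6% of all probes. On slide 3, LGR4 siRNA replicate 3 differed from the mean of the GPR124 arrays by 0.0029.

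Among the 1171 probes raised on the control arrays the order was another. Their mean was 1.35, 1.38 and 1.39 with F2RL2 siRNA, 1.31, 1.39 and 1.33 with LGR4 siRNA and 0.88, 0.94 and 0.78 with GPR124 siRNA. LGR4 overlapped with F2RL2, at a difference of -0.033 (exact permutation p = 0.3), and lay above every GPR124 array, at a difference of 0.48 (exact permutation p = 0.1). Of these probes 55.6% were called higher with LGR4 than with GPR124 siRNA and 12.6% lower, against 18.9% and 18.6% of all probes. Against F2RL2 siRNA, 21.6% were called higher and 26.0% lower, where all probes gave 8.38% and 5.55%. The LGR4 arrays thus overlapped with the GPR124 arrays for probes that fall in control differentiation and with the F2RL2 arrays for probes that rise.

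**Figure D4:**
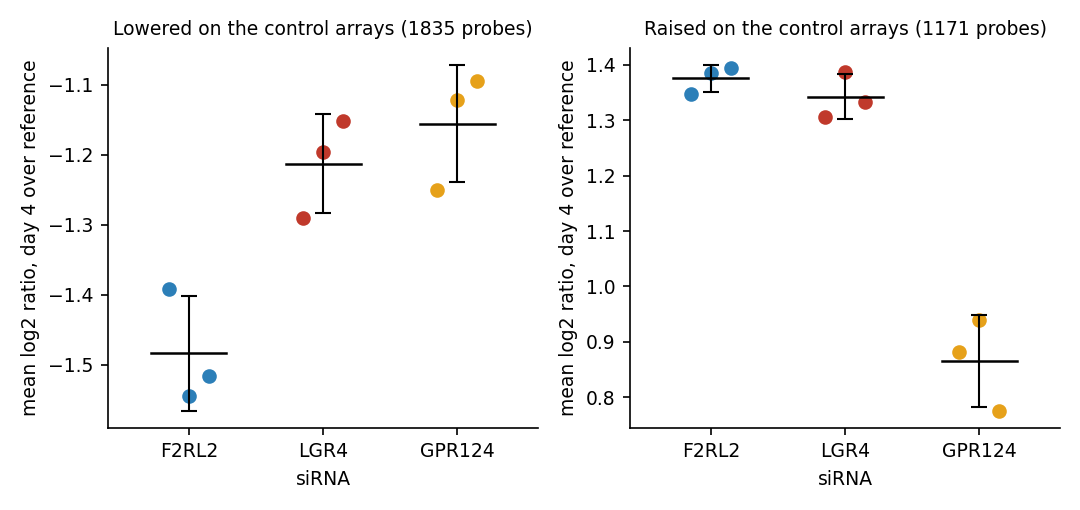
Mean log2 ratio over the reference, with 1 point per array, for probes lowered (left) and raised (right) on the control arrays, under F2RL2, LGR4 and GPR124 siRNA; lines are group means and bars 1 SD over 3 arrays, and the vertical ranges differ between panels. LGR4 arrays overlap with GPR124 arrays on the left and with F2RL2 arrays on the right.

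Some probes differed under LGR4 siRNA from every other group. In the same fit 901 probes (2.79%) were higher than with control, F2RL2 and GPR124 siRNA alike, and 348 (1.08%) were lower. The 901 probes stood at 0.47 ± 0.022 with LGR4 siRNA, -0.43 ± 0.016 with control, -0.14 ± 0.029 with F2RL2 and -0.33 ± 0.058 with GPR124 siRNA. On the control arrays 204 of them were lowered by at least 1 and 43 raised, and 654 were in neither class. Of all 32346 probes, 1835 were lowered and 1171 raised there. The control arrays are one side of the choice, which favours low control values among the 901 and high ones among the 348. By the F2RL2 and GPR124 average, 148 of the 901 were lowered and 67 raised. Every group took part in choosing these probes, so the counts by class are a description. The 348 probes stood at -0.23 ± 0.032 with LGR4 siRNA and between 0.30 and 0.44 in the other group means. Of these, 13 were lowered and 74 raised on the control arrays, and 12 and 61 by the F2RL2 and GPR124 average. Differences of at least 1 from all 3 groups were seen for 64 of the 901 and 3 of the 348. These counts were lower with median centring, at 267 and 66, and with slide as a fixed block, at 481 and 90. Neither other siRNA was called different from control for 292 of the 901 and 129 of the 348 probes.

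Individual probes moved much further than the classes. AGPOA3-44465, the probe with the largest rise, was at 1.07, 1.002 and 0.96 on the control arrays and at 5.97, 5.93 and 6.01 on the LGR4 arrays. It rose to a single narrow level on all 3 LGR4 arrays, on 2 slides. The log2 difference was 4.96 (SE 0.16, limma adjusted p = 1.42e-09), or 31.2-fold. It was also raised with F2RL2 siRNA, at 3.12 ± 0.17, and with GPR124 siRNA, at 4.18 ± 0.41, and stood above both with LGR4 siRNA by 2.85 and 1.79 (limma adjusted p = 4.15e-07 and 3.50e-06). Its reference signal was well above background on 2 of 3 arrays in each of the control and LGR4 groups.

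AGPOA3-20983 showed the largest rise in the lowered class and turned from a fall to a rise. Its log ratio was -1.84, -2.10 and -1.92 on the control arrays and 1.80, 1.82 and 1.96 on the LGR4 arrays, a difference of 3.81 (SE 0.11, limma adjusted p = 4.69e-10) or 14.0-fold. With GPR124 siRNA it was at -2.10 ± 0.13, not called different from control siRNA (limma adjusted p = 0.305) and above background in Cy3 on 1 of 3 arrays, and with F2RL2 siRNA it was at -0.63 ± 0.19. LGR4 siRNA differed from both, by 3.96 and 2.49 (limma adjusted p = 7.90e-10 and 4.10e-08). Both channels were well above background on all control and LGR4 arrays.

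The named probes with the largest falls were lower than with control siRNA under the other targeting siRNAs too. AGPOA3-02926 was at 3.50, 3.81 and 4.11 on the control arrays and at 0.22, 0.15 and 0.12 on the LGR4 arrays. Neither its Cy3 nor its Cy5 signal was well above background on any LGR4 array, while both were on all 3 control arrays. Its ratios on the LGR4 arrays therefore compare 2 background-level signals and do not measure a return to the reference level. Cy5 was not well above background on any F2RL2 or GPR124 array either. It was lower by at least 12.1-fold (limma adjusted p = 5.00e-09), where the bound compares normalized Cy3 with the dimmest signal counted as well above background. F2RL2 and GPR124 siRNA gave 0.42 ± 0.20 and 0.22 ± 0.13, and neither was called different from LGR4 siRNA (limma adjusted p = 0.295 and 0.768). AGPOA3-38272, the largest fall in the raised class, was at 5.11, 5.12 and 5.52 on the control arrays and 1.89, 1.80 and 2.28 on the LGR4 arrays. It remained above the reference in all 6 samples and differed by -3.26 (SE 0.42, limma adjusted p = 0.000136), or 9.56-fold. Its Cy5 signal was well above background on 1 of 3 arrays in both groups. With the processed signals its adjusted p was 0.04, and with slide as a fixed block 0.0356. F2RL2 siRNA left it at 3.01 ± 0.15 and GPR124 siRNA at 2.42 ± 1.21, a group whose arrays ran from 1.13 to 3.53.

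**Figure D5:**
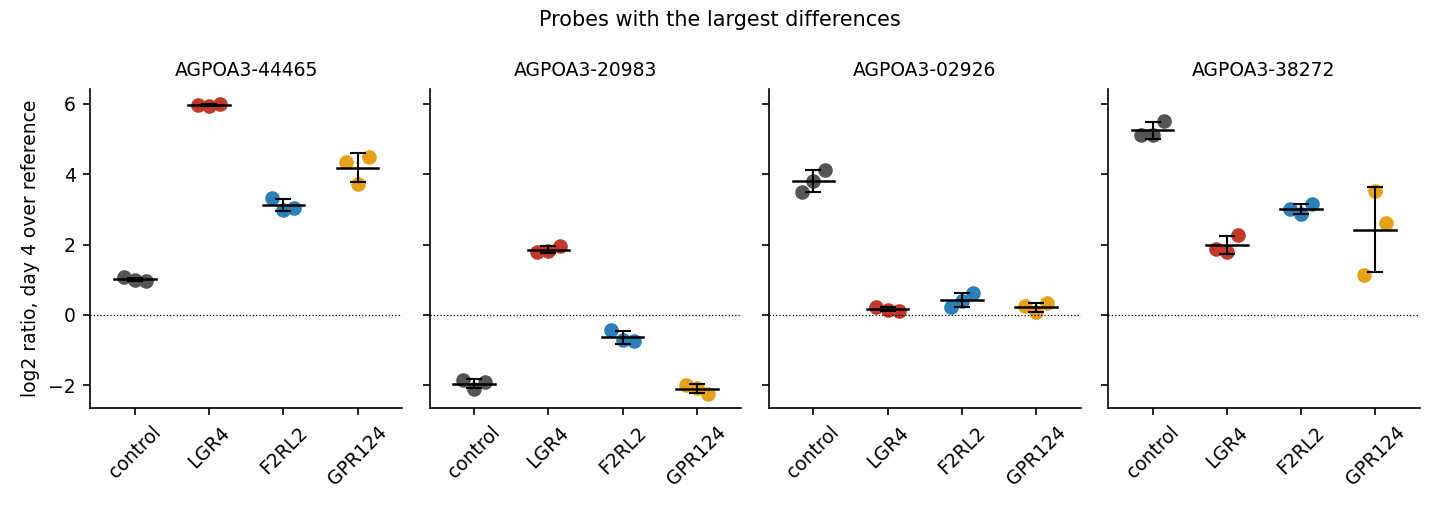
Log2 ratio over the reference of 4 probes on all 12 arrays, with 1 point per array, lines at group means and bars of 1 SD over 3 arrays; the dotted line at 0 is the reference level. The rises on the left stand out under LGR4 siRNA, at 5.97 and 1.86, while the falls of the probes on the right are seen with all 3 targeting siRNAs.

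Of the 10 largest rises, between 3.46 and 4.96, 8 belonged to the raised class and 2 to the lowered class. Their means were between -2.85 and 1.01 with control siRNA and between 0.68 and 5.97 with LGR4 siRNA, so most had not risen in control cells. All 10 were called higher than with F2RL2 siRNA and 8 of 10 higher than with GPR124 siRNA. Of all probes, 8.38% and 18.9% were called higher in these contrasts. The largest rises and falls were chosen on the LGR4 arrays, which also enter these contrasts. Calls in the same direction are therefore favoured, and the counts here and below are a description. Of the 10 largest falls, between -3.64 and -2.47, 2 were called lower than with F2RL2 siRNA and 1 lower than with GPR124 siRNA, against 5.55% and 18.6% of all probes. Among these 10, 3 were not well above background in Cy3 on any LGR4 array, which limits how far below another group they could be measured. These 10 falling probes had control means from 1.14 to 5.25, so every one was above the reference in control cells. In the lowered class the 10 largest rises lay between 2.62 and 3.81. Those probes were at -5.02 to -1.89 with control siRNA and at -2.35 to 1.86 with LGR4 siRNA, and 9 of 10 were called higher than with both other siRNAs. The 10 largest falls in the lowered class were smaller, between -2.17 and -0.97. In the raised class, the 10 largest rises lay between 2.94 and 4.96 and the 10 largest falls between -3.26 and -2.19. Of these rises and falls, 7 and 4 differed in the same direction from both other siRNAs. Over all probes, 2.79% were higher and 1.08% lower than in all 3 other groups.

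Detection in the sample channel gave few switches. Cy3 was well above background on all 3 LGR4 arrays and on no control array for 79 probes (0.244% of those tested), 58 of which were called higher. The reverse was seen for 399 probes (1.23%), of which 114 were called lower and 1 higher. The excess of the reverse pattern stood beside fewer detected probes on LGR4 siRNA replicate 3, with 25323 in Cy3 against 27515 and 28458 on the other LGR4 arrays, and its part in that count was not tested. The classes held 5 lowered and 0 raised probes of the 79, and 4 and 1 of the 399; 30097 of all 32346 probes lay in neither class.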

How the data were processed

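Per the labels, each array compared a Cy3-labelled sample with the Cy5-labelled reference, 400 ng of RNA for each dye, without dye swaps. Agilent Feature Extraction 9.5.3.1 read the spots, per the file headers. From the deposited intensity columns, the median spot and local background brightness of each channel were taken, which are not normalized. The deposited processed intensity, background-subtracted and dye-normalized by that software, served as an alternative. The deposited log10 ratio column, Cy5 over Cy3, was used to check direction. The authors' value table holds log2 ratios that matched the log2 of processed Cy3 over Cy5 within 5e-10, so scale and direction are known and no centring was added. The median of its columns was 0.13, 0.16 and 0.10 on control arrays, 0.14, 0.13 and 0.16 on LGR4 arrays and -0.28 to 0.14 on the others.

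Background was corrected by normexp (offset 50) and log ratios normalized within arrays by loess, with 1417 control spots at weight 0. Outlier spots were left out on their array, which leaves missing values. Probes were kept if Cy3, or else Cy5, was well above background on 3 or more of the 12 arrays. All 12 arrays were fitted in limma 3.58.1 (R 4.3.3), 1 coefficient per group, with Benjamini-Hochberg adjustment over 32346 probes. The fit was tested on simulated data. Class means were compared by exact permutation over arrays. The dyes were not swapped and reference cells were not transfected, so ratios to the reference hold dye, transfection and differentiation together; differences between siRNA groups do not share this limit. The small number of arrays limits precision.

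Identifiers printed are, among called probes with all 3 LGR4 arrays on one side of the control mean and the brighter group well above background, the largest rise and fall overall and the largest rise in the lowered and fall in the raised class. The gene lists and cell type markers that had been set were not used, because 0 of 43221 probe identifiers matched the gene tables. The comparison, the classes and the probes were chosen with earlier results of these data known. The comparisons by class chosen on the control arrays were added after the data were seen.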

Additional observations from a re-analysis of the deposited data

How the results depend on the processing

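The difference of the lowered class was positive under each alternative run, from 0.20 to 0.50. It moved by more than the spread of arrays with slide as a fixed block (0.42), class thresholds of 2 (0.50) and 0.58 (0.20), and classes from GPR124 alone (0.26), from control arrays (0.46) or from both (0.42). The raised class moved with the strict filter (0.037), threshold 2 (-0.26), classes from GPR124 alone (0.039), from control arrays (-0.45) or both (-0.26). Slide as a fixed block gave 2711 calls, 405 lowered probes higher, and 136 raised probes higher and 131 lower. Median centring gave 3576 calls, with 122 raised probes higher and 143 lower. For lowered probes higher, thresholds of 2 and 0.58 gave 165 and 1221. For raised probes they gave 38 and 483 higher and 68 and 489 lower, classes from control arrays 121 and 584, and 103 higher with both. Probes higher than all 3 other groups numbered 267 with median centring, 457 with Cy3 alone and 481 with the slide block. Those lower numbered 66, 209 and 90, and 529 with the processed signals. The LGR4 minus F2RL2 difference of probes lowered on the control arrays fell to 0.14 under median centring and 0.18 for Cy3 alone, while the LGR4 minus GPR124 difference of raised probes fell to 0.36 under median centring. The cause of these changes was not tested. Leaving out single arrays gave 5414 to 6614 calls, 0.29 to 0.36 for the lowered class and -0.026 to 0.013 for the raised class. The 4 named probes kept direction and passed under each alternative that could be fitted; 3 of them were not tested under the strict filter. Replicate numbers were shared by the groups. Deviations of same-numbered arrays correlated at -0.33, -0.38 and 0.16, and those of arrays with different numbers at -0.21 to 0.43. With 3 arrays in each group and the groups on different slides, these values cannot decide whether replicate numbers pair the arrays. A fit with the replicate number as a block gave 6525 calls. Near-background signals limit single probes: 143 lowered probes were not above background in Cy3 on all 6 arrays.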
